A study of Mus musculus with 20 samples.

Results

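The 4 Hox clusters of the mouse comprised all genes whose symbol is Hoxa, Hoxb, Hoxc or Hoxd followed by a number. These were 39 of the 49671 gene IDs counted: 11 Hoxa genes on chromosome 6, 10 Hoxb genes on chromosome 11, 9 Hoxc genes on chromosome 15 and 9 Hoxd genes on chromosome 2. They were followed in bone marrow hematopoietic stem cells (HSCs) through 6 RNA-seq libraries, counted per gene, and 6 ATAC-seq libraries, in which transposase insertion marks accessible DNA and each library has its own list of peaks. Control RNA came from Vav-CRE:Kdm6b+/+ mice and Kdm6b-KO RNA from Vav-CRE:Kdm6bfl/fl mice, 3 libraries each, all C57BL/6 and 8 weeks old, and each library pooled cells from 3 male and 3 female animals. Both groups therefore carry Cre recombinase, and the Vav driver expresses it throughout blood formation. The ATAC libraries, each from 10000 sorted cells of mice also 8 weeks old, are titled Control (3) and 6bKO (3). However, their genotype label reads wild-type in all 6, so the second group is called the libraries titled 6bKO. The remaining 8 samples of the series (ChIP of histone marks, and input) were not analysed here.

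Hox genes encode homeodomain transcription factors and sit in the clusters in an order kept through evolution, so that the number of a gene names its position, and genes with the same number in different clusters are paralogs. In the embryo they are switched on in that order along the body axis. Silent parts of the clusters carry histone H3 trimethylated on lysine 27, placed by Polycomb complexes and removed by the demethylases Kdm6a and Kdm6b, while Kmt2a complexes maintain the active parts. In blood, stem and progenitor cells use genes of the Hoxa and Hoxb clusters together with the cofactor Meis1, and these genes are turned down as cells mature.

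Reads assigned to genes numbered 6793873 to 13797890 per Control library and 8683106 to 19336121 per Kdm6b-KO library, so that 3 counts stood for 0.148 to 0.461 CPM (counts scaled to library size, with TMM factors). Kdm6b itself had 92.0, 282.5 and 220.6 CPM in Control 1, 2 and 3, against 142.5, 202.1 and 191.3 CPM in Kdm6b-KO 1, 2 and 3. The groups overlapped (log2 fold change -0.15, edgeR adjusted p = 0.882), and which exons Cre removes is not stated in the labels, so this whole-gene count does not check the genotype. All 8 HSC markers, Procr and Mecom among them, had at least 3 counts in every library. Cd48, whose protein the sort selected against, had 4.60 to 16.7 CPM. Neutrophil granule genes, at 3 counts or more for 8 of 8 in every library, summed to 1167 to 3590 CPM in Control, but to 4222, 191.5 and 189.3 CPM in Kdm6b-KO 1, 2 and 3, and erythroid genes to 168.1 to 323.4 CPM and to 202.2, 33.1 and 32.2 CPM. Kdm6b-KO 1 thus stood apart from the other Kdm6b-KO libraries in these sums, and Hox values are given for every library below. Not every member followed its sum. Of the 5 erythroid genes, 4 had negative log2 fold changes of Kdm6b-KO over Control. The other 1 had 22.2, 20.05 and 12.6 CPM in Kdm6b-KO, above every Control library. Of the 8 neutrophil genes, 7 were negative and 1 was positive, with 185.6, 49.9 and 95.96 CPM in Kdm6b-KO. The mesenchymal markers, from cells that use many Hox genes, summed to 25.5 to 86.02 CPM in Control and 27.4 to 35.6 CPM in Kdm6b-KO. The 86.02 CPM were those of Control 2, where 1 gene alone had 55.3 CPM, against 0.307 to 2.80 CPM in the other libraries. Of the 7 mesenchymal markers, 3 had at least 3 counts in every library, and none was at 0 in all 6. In pooled sorted cells, fewer cells of a type and less RNA per cell cannot be told apart.

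Nearly all Hox RNA in these HSCs came from Hoxa and Hoxb genes at positions 2 to 10. A mean of at least 1 CPM over the 6 libraries was reached by 11 of the 39 members: Hoxa2, Hoxa3, Hoxa5, Hoxa7, Hoxa9 and Hoxa10, and Hoxb2, Hoxb3, Hoxb4, Hoxb5 and Hoxb6. They took 98.1% of the 19544 Hox reads of all libraries. By cluster, 78.2% of the Hox reads were Hoxa, 21.1% Hoxb, 0.466% Hoxc and 0.281% Hoxd. These are shares of reads, not of transcripts, since no transcript lengths were used and a longer transcript gives more reads. Group comparisons of CPM are therefore made between libraries for 1 gene at a time. Where genes are set side by side, as for the positions below, the values are levels of reads and not of transcripts.

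**Figure D1:**
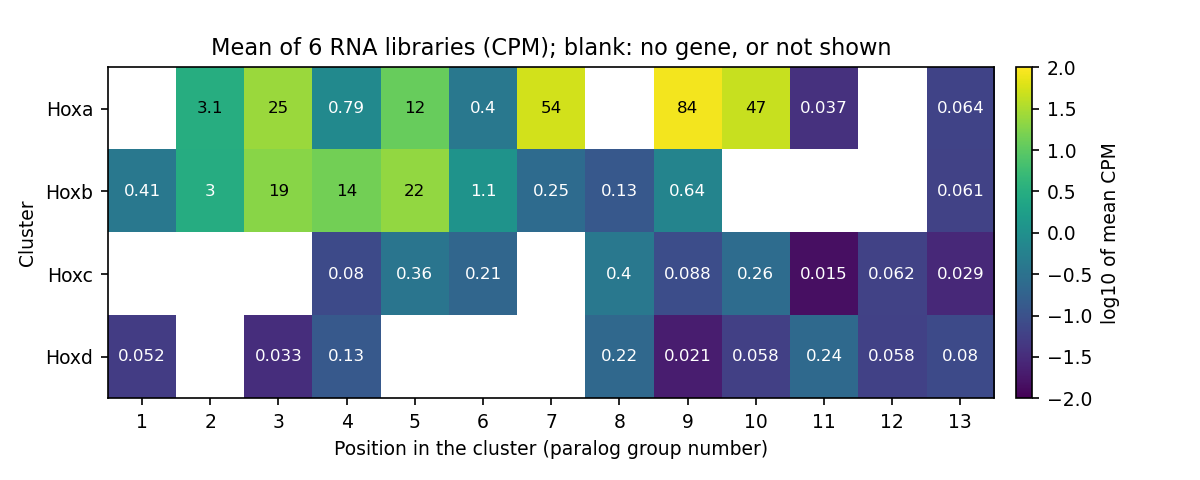
Mean CPM over the 6 RNA libraries for each Hox gene, with rows for the 4 clusters, columns for the position in the cluster and colour for log10 of the mean. The 11 genes at 1 CPM or more all lie in the Hoxa and Hoxb rows between positions 2 and 10; values are not scaled to gene length, and a blank cell has no gene or a gene not shown.

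Of the 13 positions, 8 had at least 1 gene at this level, positions 2 to 7 and 9 and 10. At positions 2, 3 and 5 both the Hoxa and the Hoxb gene were at 1 CPM or more. At position 4 the level was reached by Hoxb4 but not by Hoxa4, which lay just under it with a mean of 0.792 CPM, and at position 6 by Hoxb6, just above it with 1.12 CPM, but not by Hoxa6 with 0.396 CPM. At position 7 the pattern was the opposite, with a mean of 54.2 CPM for Hoxa7 and 0.254 CPM for Hoxb7, and at position 9 Hoxa9 had 84.0 CPM and Hoxb9 0.636 CPM. No gene of positions 8, 11, 12 or 13 reached 1 CPM. At the rear end of the Hoxa cluster, Hoxa10 had a mean of 46.8 CPM, whereas its neighbour Hoxa11 had 3 reads in Control 3 and none in the other 5 libraries, and Hoxa13, the last gene, had 3 reads in Control 2 alone.

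Most of the 28 members under 1 CPM were seen as scattered reads, while Hoxa4 had 4 to 20 counts in every library. Across all 39 members, 26 had 0 counts in at least 1 library and 12 had 3 or more counts in all 6. The 9 Hoxc genes, which in the embryo pattern the trunk and tail, had 91 reads in all 6 libraries together, and the highest mean was 0.395 CPM, for Hoxc8. The 9 Hoxd genes, known for their part in limb and digit formation, had 55 reads, with the highest mean at 0.236 CPM for Hoxd11. Their reads were spread unevenly: Kdm6b-KO 1 held 27 Hoxd reads and Kdm6b-KO 2 held 11, but Kdm6b-KO 3, the deepest library, held 0, which allows 0.148 CPM for a single gene at its 3-count floor. In the same library 22025 genes were detected, against 27316 and 25971 in Kdm6b-KO 1 and 2. Hoxb9 went the other way, with 32 reads in Kdm6b-KO 3 and 0 to 9 in each of the other libraries. Floors cover counting error only, because the reads carry no molecular identifiers.

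The sequence before the start of a few members is shown because the peaks described further on lie at, beside or away from it. The RefSeq promoter table of GRCm38.p6 (the assembly of mm10) matched 22 of the 39 members, with 24 windows. Each line gives the 250 bases before the annotated start, 5′ to 3′ on the coding strand. Capitals mark matches, on either strand, to the TATA box written TATAAA, the box known by its letters CCAAT, the joint site of Pbx and Hox proteins written TGATNNAT, the Meis site written TGACAG, or the GC box written GGGCGG. Hoxa3 had, over all libraries merged, an open region across part of this stretch, which the peak of Control 1 did not reach. Hoxb4 had one that reached into it in some libraries only, Hoxa10 had one just inside the gene, and Hoxa9 had none near the start. Hoxb1 and Hoxc4 are genes under 1 CPM with a region beside the start. The Hoxc4 start used here lies inside the annotated span of that gene (chr15:103018097-103036856).
Hoxa3, chr6:52213068-52213317, minus strand: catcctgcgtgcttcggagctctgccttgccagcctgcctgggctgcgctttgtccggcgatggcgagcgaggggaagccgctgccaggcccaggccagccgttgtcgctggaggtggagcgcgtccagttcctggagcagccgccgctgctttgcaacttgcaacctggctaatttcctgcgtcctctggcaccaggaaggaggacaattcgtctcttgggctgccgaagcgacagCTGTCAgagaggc
Hoxa9, chr6:52227371-52227620, minus strand: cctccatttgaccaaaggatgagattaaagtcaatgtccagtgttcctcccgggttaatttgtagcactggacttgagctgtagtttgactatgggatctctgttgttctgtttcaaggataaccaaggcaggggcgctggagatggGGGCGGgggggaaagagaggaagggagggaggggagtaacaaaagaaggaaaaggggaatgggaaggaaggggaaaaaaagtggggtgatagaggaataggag
Hoxa10, chr6:52240855-52241104, minus strand: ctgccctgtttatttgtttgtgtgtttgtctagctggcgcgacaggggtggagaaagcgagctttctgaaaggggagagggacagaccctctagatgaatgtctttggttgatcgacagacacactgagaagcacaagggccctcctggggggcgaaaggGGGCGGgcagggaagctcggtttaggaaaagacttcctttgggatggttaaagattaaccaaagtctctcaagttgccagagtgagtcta
Hoxb4, chr11:96318017-96318266, plus strand: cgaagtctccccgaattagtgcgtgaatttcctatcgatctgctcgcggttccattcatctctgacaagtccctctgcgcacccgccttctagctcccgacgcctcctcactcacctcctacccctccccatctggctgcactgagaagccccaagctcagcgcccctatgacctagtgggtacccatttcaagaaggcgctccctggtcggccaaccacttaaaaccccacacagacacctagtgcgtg
Hoxb1, chr11:96365508-96365757, plus strand: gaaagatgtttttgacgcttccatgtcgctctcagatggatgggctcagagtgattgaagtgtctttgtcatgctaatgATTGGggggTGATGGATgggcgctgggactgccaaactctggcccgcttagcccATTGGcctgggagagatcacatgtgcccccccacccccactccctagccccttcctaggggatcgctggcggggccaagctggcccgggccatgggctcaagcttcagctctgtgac
Hoxc4, chr15:103034145-103034394, plus strand: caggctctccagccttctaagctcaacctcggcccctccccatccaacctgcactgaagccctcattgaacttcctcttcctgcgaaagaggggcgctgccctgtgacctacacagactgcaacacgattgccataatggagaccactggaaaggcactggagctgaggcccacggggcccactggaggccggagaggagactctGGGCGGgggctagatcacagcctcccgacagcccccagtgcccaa
In these stretches TGACAG was found once, in Hoxa3, and 2 CCAAT matches and 1 TGATNNAT match lie close together before Hoxb1, a hindbrain gene known to maintain its own expression with Pbx partners in the embryo. Hoxb4 had no match to any of the 5 motifs. Over all matched members, CCAAT occurred in 14 of 24 windows (58.3%, against 33.8% of 32851 windows of all genes) and GGGCGG in 10 (41.7% against 32.7%). TATAAA occurred in 4 (16.7% against 12.4%), TGATNNAT in 4 (16.7% against 7.68%) and TGACAG in 2 (8.33% against 15.9%). The Hox windows had a median GC content of 58.6% and a median of 12.5 CpG dinucleotides, against 52.4% and 6.0 for all windows. The 8 windows of members at 1 CPM or more and the 16 of the other members had medians of 10.5 and 12.5 CpG. A match describes the letters and is not a site of binding.

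The comparison of Kdm6b-KO with Control RNA addressed whether the Hox genes used by HSCs differ when the demethylase is lost. No Hox gene passed the test. Of the 39 members, 10 had enough reads to be tested (all of those at 1 CPM or more except Hoxb6), and 29 did not. In edgeR's quasi-likelihood test, adjusted over 15185 genes, 0 of the 10 were called at an adjusted p under 0.05, and 0 had an unadjusted p under 0.05, which 14.8% of all genes had. DESeq2 and limma-voom also called 0. Over all genes 0.461% were called, 0.244% as higher and 0.217% as lower in Kdm6b-KO, so a count of 0 in 10 is near the background. Log2 fold changes of Kdm6b-KO over Control were positive for 5 and negative for 5 members, with a median of 0.04, against a median of -0.0012 over all genes. In 1 member, Hoxa7, every Kdm6b-KO library lay above every Control library (11% of all genes did so), and in 1, Hoxb4, every one lay below (9.49% of all genes).

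**Figure D2:**
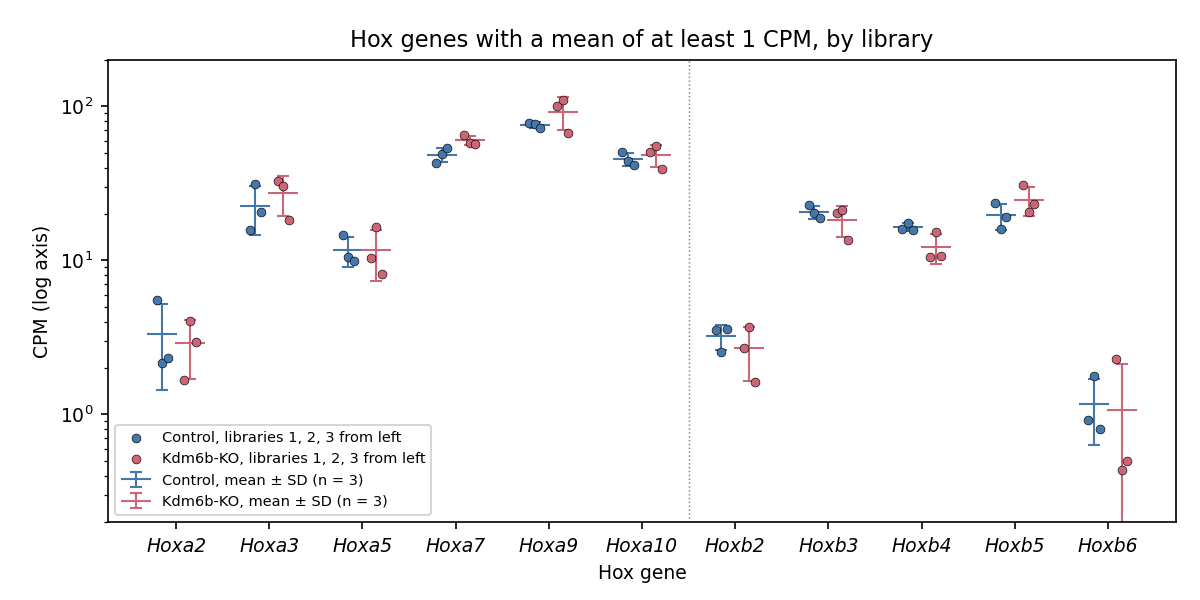
CPM on a log axis in each RNA library for the 11 Hox genes with a mean of at least 1 CPM, Control in blue and Kdm6b-KO in red, with the mean and SD of 3 libraries (the lower bar of Hoxb6 in Kdm6b-KO runs past the axis). Points of the groups overlap for 9 genes; Hoxa7 is higher and Hoxb4 lower in all 3 Kdm6b-KO libraries, and neither passed the test.

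Among the rear Hoxa genes, Hoxa9, which supports HSC renewal and is a central gene of Kmt2a-driven leukemia, had 78.2, 76.9 and 72.3 CPM in Control 1, 2 and 3, against 100.2, 109.2 and 67.5 CPM in Kdm6b-KO 1, 2 and 3. The Control libraries lay close together, and Kdm6b-KO 3 was below all of them while the other Kdm6b-KO libraries were above. The log2 fold change was 0.28 (SE 0.21, 95% interval -0.15 to 0.72, edgeR adjusted p = 0.549). Without Kdm6b-KO 3 the log2 fold change was 0.46 with an unadjusted p under 0.05, and it was not called after adjustment. Hoxa7, a neighbour of Hoxa9 that is active with it in leukemia, had 43.2, 48.8 and 53.3 CPM in Control against 64.8, 58.2 and 57.2 CPM in Kdm6b-KO. The groups did not overlap, with a log2 fold change of 0.31 (SE 0.19, 95% interval -0.10 to 0.71, edgeR adjusted p = 0.469). Hoxa10, which acts on progenitor growth and on red cell and platelet formation, had 50.4, 44.1 and 41.4 CPM in Control against 50.3, 55.3 and 39.4 CPM in Kdm6b-KO. Its groups overlapped almost fully (log2 fold change 0.09, SE 0.21, edgeR adjusted p = 0.877).

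Of the front and middle Hoxa genes, Hoxa5, a regulator of lineage choice in progenitors, had 14.6, 10.6 and 9.86 CPM in Control against 10.3, 16.4 and 8.11 CPM in Kdm6b-KO, with overlapping groups and a log2 fold change of -0.01 (95% interval -0.70 to 0.68). Hoxa3, known from the development of the thymus and of endothelium that gives rise to blood, had 15.8, 31.4 and 20.8 CPM in Control against 32.9, 30.5 and 18.2 CPM in Kdm6b-KO. The spread within each group was larger than the difference between the groups (log2 fold change 0.26, 95% interval -0.38 to 0.89, and 0.06 to 0.56 with 1 library left out). The annotated span of Hoxa3 also holds Hoxa4, Hoxa5 and Hoxa6 and overlaps the antisense gene Hoxaas3, so reads of these genes may be mixed. The strand setting used in counting, which bears on antisense genes, is not given in these sources. Hoxa5 also overlaps Hoxaas3, Hoxb2 and Hoxb3 overlap Hoxb3os, and Hoxb5 and Hoxb6 overlap Hoxb5os. Hoxa2, a hindbrain and neural crest gene, had 5.53, 2.16 and 2.34 CPM in Control against 1.66, 4.03 and 2.97 CPM in Kdm6b-KO. It rested on 17 to 60 counts a library, and its 95% interval on the log2 scale ran from -1.29 to 0.91.

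In the Hoxb cluster, Hoxb4, which expands HSCs when supplied at high level, had 15.97, 17.5 and 15.9 CPM in Control against 10.6, 15.4 and 10.6 CPM in Kdm6b-KO. All Kdm6b-KO libraries were lower than all Control libraries, Kdm6b-KO 2 only slightly, and the log2 fold change was -0.44 (SE 0.27, 95% interval -1.01 to 0.14, edgeR adjusted p = 0.473). Hoxb5, used as a reporter of long-term HSCs in the mouse, had 23.5, 16.01 and 19.2 CPM in Control against 30.8, 20.5 and 23.2 CPM in Kdm6b-KO. Its groups overlapped, and its log2 fold change had the opposite sign to that of its neighbour Hoxb4, at 0.34 (SE 0.26, 95% interval -0.20 to 0.89, edgeR adjusted p = 0.561). Hoxb3, whose span includes all of Hoxb4, had 22.7, 20.3 and 18.8 CPM in Control against 20.2, 21.1 and 13.5 CPM in Kdm6b-KO. These overlapped, with a log2 fold change of -0.18 (SE 0.26, edgeR adjusted p = 0.793).

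Hoxb2, a hindbrain gene, had 3.53, 2.54 and 3.58 CPM in Control against 2.71, 3.71 and 1.63 CPM in Kdm6b-KO, with a 95% interval of -1.29 to 0.72 for its log2 fold change. Hoxb6, the member at 1 CPM or more with too few reads for the test, had 0.922, 1.78 and 0.804 CPM in Control against 2.27, 0.436 and 0.495 CPM in Kdm6b-KO. Its highest and its lowest library were both Kdm6b-KO. Over the 10 tested members, Kdm6b-KO 3 was the lowest of its group for 7 and the highest for 0, and Kdm6b-KO 2 was the highest for 7. The order of these libraries differs from that of the neutrophil and erythroid markers, where Kdm6b-KO 1 was the highest.

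**Figure D3:**
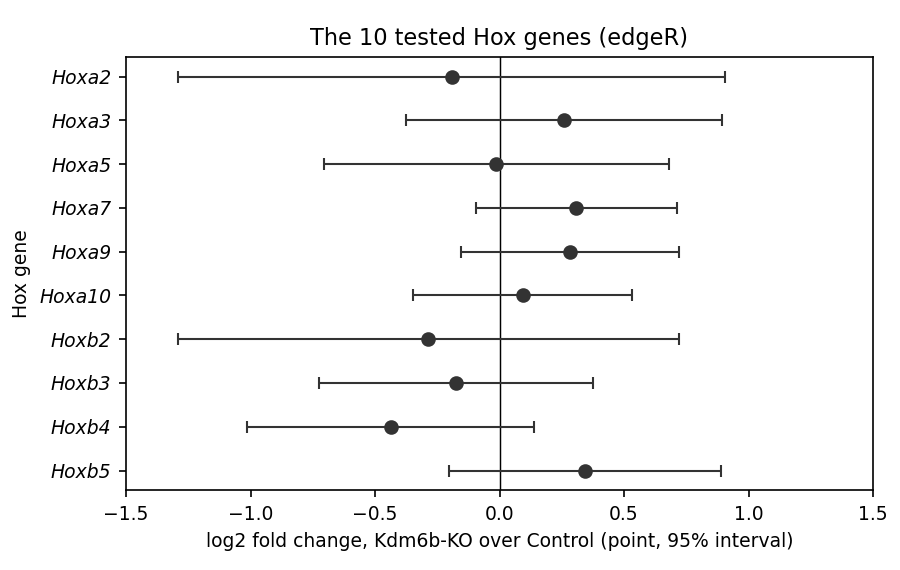
Log2 fold change of Kdm6b-KO over Control (point) with its 95% interval (bar) for the 10 tested Hox genes, 3 libraries per group. All 10 intervals include 0; those of Hoxa2, Hoxb2 and Hoxb4 reach below -1, and the other 7 lie between -1 and 1.

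The intervals set the size of change these libraries could miss. For 7 of the 10 members the 95% interval lay within a log2 fold change of -1 to 1, and for Hoxa2, Hoxb2 and Hoxb4 it reached past -1. In simulated counts for this comparison, 39% of genes given a log2 change of 1 and 96% of those given a change of 2 were recovered among 14795 tested. A p above the threshold here does not show that a gene is unchanged. The Hoxb genes lie on the chromosome of Kdm6b, where 2.43% of tested genes were called, against 0.558% on chromosome 6, which carries Hoxa.

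Summed over its members, the Hoxa cluster had 209.0, 215.9 and 201.5 CPM in Control against 260.9, 275.8 and 194.9 CPM in Kdm6b-KO, so that Kdm6b-KO 3 lay under the Control range and the other Kdm6b-KO libraries above it. Hoxb summed to 68.0, 58.8 and 59.8 CPM in Control against 67.8, 62.7 and 51.8 CPM in Kdm6b-KO. Means were 208.8 ± 7.19 and 243.9 ± 43.1 CPM for Hoxa and 62.2 ± 5.05 and 60.8 ± 8.16 CPM for Hoxb (SD, n = 3 each). Hoxc summed to 2.46, 1.27 and 1.46 CPM and to 2.10, 1.20 and 0.495 CPM, and Hoxd to 0.307, 0.890 and 0.585 CPM and to 2.36, 1.20 and 0 CPM. The groups overlapped in all 4 clusters, and no test was made of these sums.

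The genes that act with or on the clusters were described from fixed lists, and none of their members was called by edgeR. Among the TALE homeodomain cofactors, 10 of 11 were tested, 4 with positive and 6 with negative log2 fold changes (median -0.04). Meis1, which binds DNA with Hoxa9, had 976.5, 1470 and 1345 CPM in Control against 1065, 1096 and 994.5 CPM in Kdm6b-KO. Its groups overlapped. Of the activators of Hox genes, 17 of 20 were tested, 8 positive and 9 negative (median -0.05). Mllt3, a reader of histone acylation that recruits the H3K79 methyltransferase Dot1l, had 330.5, 323.0 and 305.4 CPM in Control against 254.4, 215.7 and 216.3 CPM in Kdm6b-KO, without overlap (log2 fold change -0.48, edgeR adjusted p = 0.257). Kmt2a, the H3K4 methyltransferase of these loci, had 283.1, 271.7 and 249.1 CPM and 186.5, 256.6 and 183.7 CPM. Cdx1, Cdx2 and Cdx4, activators of Hox genes in the embryo, were the 3 untested members, with 0 to 3 counts a library.

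Of the Polycomb genes all 22 were tested, 12 positive and 10 negative (median 0.11). Rnf2, the catalytic subunit of Polycomb complex 1, had means of 214.9 and 196.8 CPM in Control and Kdm6b-KO, and Mtf2, an accessory subunit of Polycomb complex 2, had 157.8 and 149.1 CPM. In the list of cluster architecture, which holds Ctcf and the cohesin genes, 9 of 9 were tested, 1 positive and 8 negative (median -0.20). Wapl, which releases cohesin from DNA, had 1468, 1078 and 549.7 CPM in Control against 539.4, 518.7 and 443.8 CPM in Kdm6b-KO. The Control libraries of Wapl ranged widely and all lay above the Kdm6b-KO libraries (log2 fold change -1.04, SE 0.30, edgeR adjusted p = 0.148). Smc1a, a cohesin subunit, had means of 485.0 and 423.3 CPM. Of the genes reported as Hox or Meis1 targets in blood, 15 of 16 were tested, 5 positive and 10 negative (median -0.08). Cdk6, a cell cycle kinase of stem and progenitor cells, had 1541, 2384 and 1215 CPM in Control against 871.7, 943.5 and 760.5 CPM in Kdm6b-KO, without overlap (log2 fold change -0.997, SE 0.26, edgeR adjusted p = 0.117), and Pim1 had means of 624.9 and 646.7 CPM.

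The noncoding genes within the clusters followed the same division as the coding genes. Of the 12 listed, 4 were tested, and all 4 lie in the front or middle of Hoxa or Hoxb: Hoxaas2, Hoxaas3, Hoxb3os and Hoxb5os. Hoxaas2, beside Hoxa3, had 20.9, 25.7 and 22.1 CPM in Control against 33.2, 37.7 and 17.2 CPM in Kdm6b-KO, with Kdm6b-KO 3 lowest as for Hoxa9. Hoxaas3 had 26.6, 25.7 and 22.1 CPM and 21.9, 19.2 and 25.9 CPM. Neither passed the test. Hottip, at the rear of Hoxa, and Hotair, in Hoxc, had 0 to 2 and 0 to 4 counts a library. Of the genes in the wider surroundings of the clusters, 20 of 25 were tested, 10 in each direction (median -0.01). Tax1bp1 and Snx10, both on chromosome 6 to either side of Hoxa but not next to it, had means of 556.8 and 413.6 CPM in Control against 501.1 and 356.5 CPM in Kdm6b-KO, with overlap for Tax1bp1 and none for Snx10. Neither passed the test.

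In open chromatin, every library had more peaks in Hoxa and in Hoxb than in Hoxc or Hoxd, over spans of unequal length. In number, though not per 10 kb, Hoxb had more than Hoxa in the libraries titled 6bKO. With 5 kb added at each end, Hoxa (115.5 kb) held 10, 9 and 13 peaks in Control 1, 2 and 3 and 11, 12 and 14 in the libraries titled 6bKO 1, 2 and 3. Hoxb (183.9 kb) held 6, 5 and 13 in Control and 14, 14 and 15 in the libraries titled 6bKO. Hoxc (125.7 kb) held 3, 1 and 4 and 4, 4 and 7, and Hoxd (106.9 kb) held 1, 2 and 4 and 7, 2 and 8. Per 10 kb, Hoxa had 0.779 to 1.21 peaks over the 6 libraries, Hoxb 0.272 to 0.816, Hoxc 0.0795 to 0.557 and Hoxd 0.0935 to 0.748. The ranges of Hoxb, Hoxc and Hoxd thus overlapped. Hoxa had more per 10 kb than Hoxb in every library. In the libraries titled 6bKO these were 0.952, 1.04 and 1.21 for Hoxa and 0.761, 0.761 and 0.816 for Hoxb. Read depth is not known for these lists, and the number of peaks in the whole list was 44739 to 62125 in Control and 53692 to 69729 in the libraries titled 6bKO. Control 3 had the longest Control list and also the most Control peaks in each cluster.

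**Figure D4:**
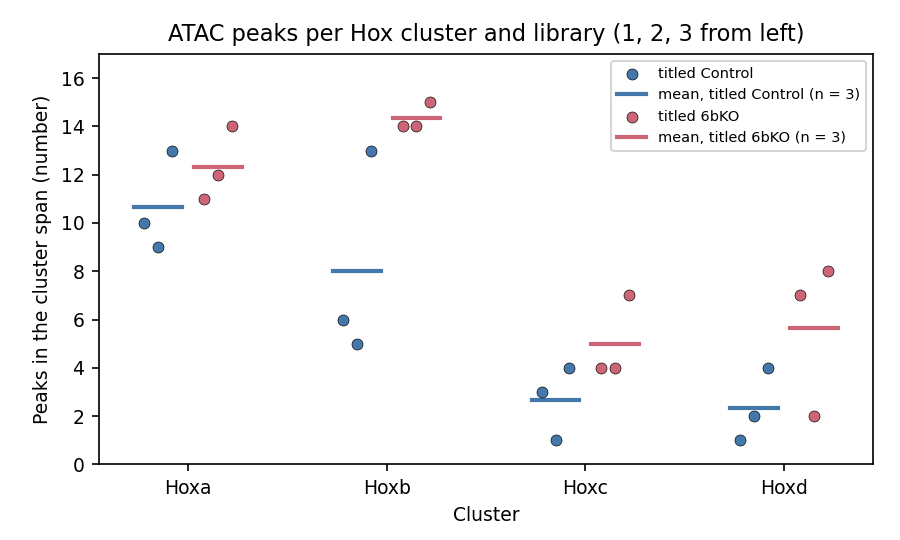
Number of ATAC peaks in the span of each Hox cluster with 5 kb added at each end, by library (points) with the group mean (line), libraries titled Control in blue and 6bKO in red. In Hoxb the 3 libraries titled 6bKO have 14, 14 and 15 peaks and the Control libraries 6, 5 and 13; the groups overlap in the other clusters.

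In the Hoxb cluster the groups did not overlap. The mean was 8.0 ± 4.36 peaks in Control and 14.3 ± 0.577 in the libraries titled 6bKO (SD, n = 3 each), and the two-sided exact permutation test gave p = 0.1, the smallest that 3 against 3 libraries allow, or 0.4 adjusted over the 4 clusters. Control 3, with 13 peaks, was 1 short of the lowest library titled 6bKO. Scaled to the length of each list, Hoxb had 1.26, 1.12 and 2.09 peaks per 10000 in Control and 2.20, 2.61 and 2.15 in the libraries titled 6bKO, still without overlap but with Control 3 close to the others. Of 13602 windows of this length across the genome that held a peak, 6.68% had every library titled 6bKO above every Control library and 0.515% every one below. For Hoxa, Hoxc and Hoxd the exact permutation p was 0.4, 0.3 and 0.3.

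Merging peaks that shared at least 1 bp gave 85 regions in the 4 clusters. Of these, 5 had a peak in all 6 libraries, 3 in Hoxa and 2 in Hoxb, a share of 5.88% against 13% of all regions. A further 46 (54.1%) came from 1 library, near the 59.9% of all 149774 regions. The share from 1 library was 23.8% in Hoxa, 58.3% in Hoxb, 66.7% in Hoxc and 75% in Hoxd. The folds given next are the authors' enrichment of each peak over background in its own list, and describe single peaks.

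**Figure D5:**
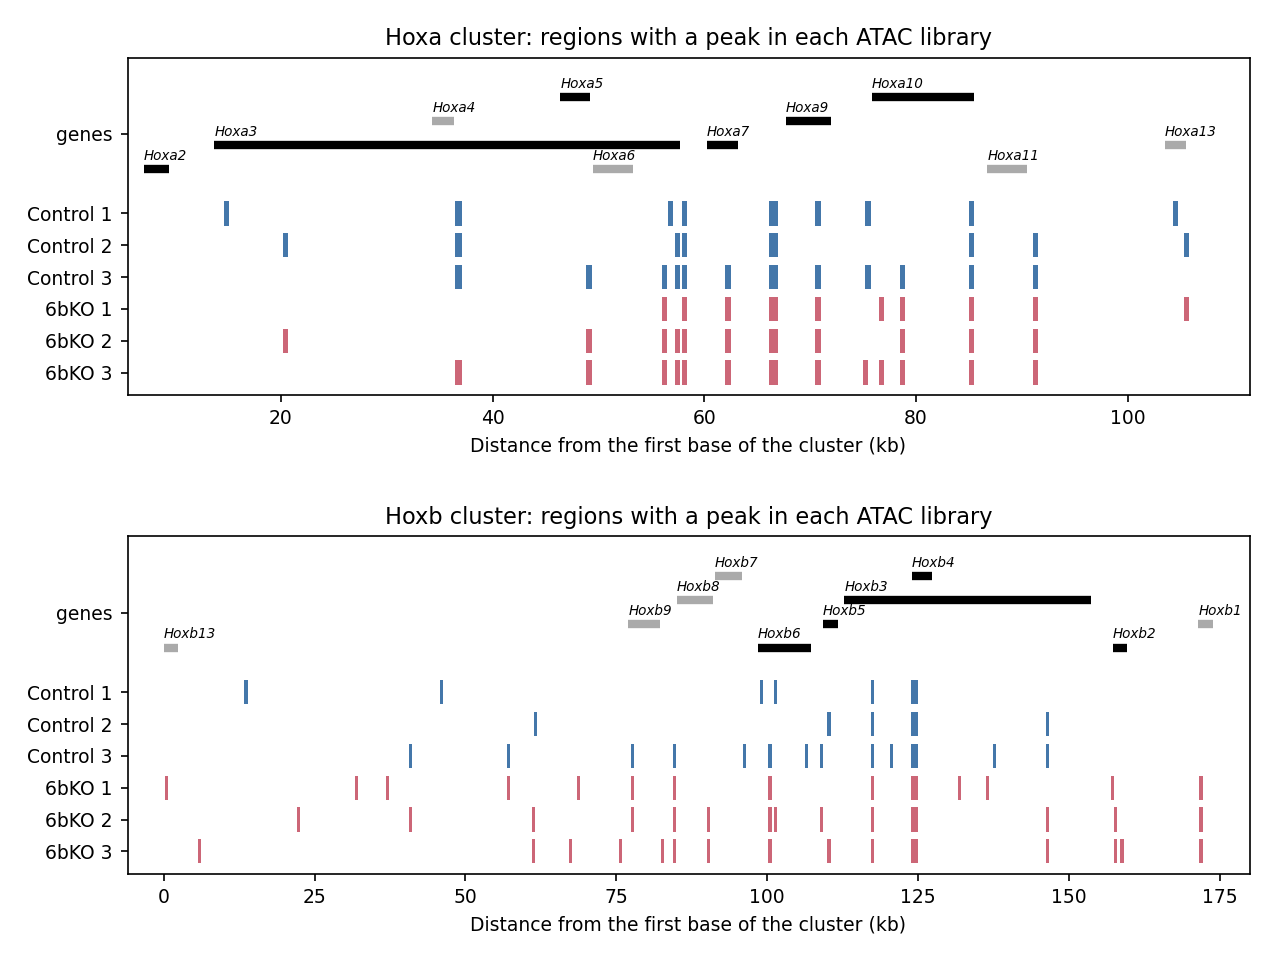
Regions with a peak in each ATAC library (rows) along the Hoxa and Hoxb clusters, in kb from the first base of the cluster. Gene spans are on top (black for a mean of at least 1 CPM, grey below it), and boxes under 0.5 kb are drawn at 0.5 kb. The front end of Hoxa is not shown. Regions in all 6 libraries lie near Hoxa3, between Hoxa7 and Hoxa9, at Hoxa10, in Hoxb3 and at Hoxb4, and the region at Hoxb1 is marked only in the libraries titled 6bKO.

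All 5 shared regions lay within or beside genes at 1 CPM or more. One (chr6:52213226-52213710) covered, over all libraries merged, the far end of the sequence shown before Hoxa3. The peak of Control 1 did not reach that sequence. This region had folds of 4.78, 5.46 and 4.45 in Control and 7.34, 7.45 and 7.13 in the libraries titled 6bKO. Another (chr6:52221503-52222294), between Hoxa7 and Hoxa9 and inside no annotated gene, had folds of 5.27, 7.80 and 7.07 and of 8.11, 7.06 and 9.17. The third of Hoxa (chr6:52240420-52240818) lay in Hoxa10 and began 36 bases past the start, with folds of 4.20, 6.04 and 5.67 and of 6.25, 10.7 and 12.4. Each of these 3 regions adjoins or lies in a gene with RNA in every library. In Hoxb, one region (chr11:96311606-96312095) lay inside Hoxb3, with folds of 7.36, 6.21 and 10.4 and of 4.85, 9.53 and 14.9. The last (chr11:96318151-96319236) ran, over all libraries merged, from 116 bases before to 969 bases past the start of Hoxb4, and only the peaks of Control 1 and 6bKO 2 reached the promoter window. It had folds of 4.29, 4.60 and 6.98 and of 8.17, 6.15 and 11.01. Folds of different lists are not on a common scale, so no difference was drawn from them.

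The Hoxb1 region (chr11:96365855-96366512) was the only one of the 85 with a peak in all 3 libraries titled 6bKO and in no Control library. It began 97 bases past the start of Hoxb1, next to the sequence shown for that gene, and its folds were 11.1, 8.53 and 15.3. Across the genome 1.3% of regions had this distribution (1.2% on chromosome 11, and 20% of regions found in exactly 3 libraries), so 1 region in 85 is near the background. Hoxb1 RNA was at 0, 0 and 10 counts in Control and 7, 10 and 0 counts in Kdm6b-KO, so reads were present and absent in both groups. No Hox region had the reverse distribution, which 0.288% of all regions had.

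Taken by gene, with 1 kb added at each end of the span, 12, 12 and 21 of the 39 members had a peak in Control 1, 2 and 3, and 22, 22 and 29 in the libraries titled 6bKO 1, 2 and 3. The groups did not overlap, and the highest Control library was 1 gene below the lowest library titled 6bKO. As shares these were 30.8% to 74.4% of the members, whereas among 21900 protein-coding genes 65.1%, 65.1% and 70.4% had a peak in Control and 69.4%, 69.2% and 73.0% in the libraries titled 6bKO, with overlap. Spans were not matched for length, and a longer span has more room for a peak. Neighbouring members can share a peak, so the 39 are not independent, and no test was made of these counts. A peak in all 6 libraries was found for 6 members. Of these, 5 were at 1 CPM or more (Hoxa3, Hoxa9, Hoxa10, Hoxb3 and Hoxb4) and 1 was under 1 CPM. Hoxa2, Hoxc11, Hoxd4 and Hoxd10 had no peak in any library, and of these only Hoxa2 had a mean of at least 1 CPM.

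Hoxb1 and Hoxb2, 2 of the 39 members, had peaks in all 3 libraries titled 6bKO and in no Control library, a pattern that 0.612% of protein-coding genes showed. That share is not a like background. In Control, 65.1% to 70.4% of protein-coding genes had a peak, against 30.8% to 53.9% of the members, so fewer of them could show the pattern. No member had the reverse pattern, shown by 0.11% of genes. At Hoxb2 the peak of 6bKO 1 lay just before the gene, and those of 6bKO 2 and 3 lay inside it. Among the 11 members at 1 CPM or more, 6, 6 and 9 had a peak in Control and 8, 10 and 10 in the libraries titled 6bKO. Among the other 28, 6, 6 and 12 had one in Control and 14, 12 and 19 in the libraries titled 6bKO. Hoxd, with no gene at 1 CPM, had 0, 1 and 1 genes with a peak in Control and 4, 1 and 6 in the libraries titled 6bKO.

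At the promoter windows themselves, 250 bases before to 50 after the start, peaks were fewer. Of the 22 matched members, 0 had a peak there in all 6 libraries, 10 had one in at least 1 library and 12 had none. By library, 2, 2 and 3 of the 22 had one in Control and 5, 4 and 5 in the libraries titled 6bKO, or 9.09% to 22.7%, against 31.4% to 40.6% of the windows of all genes. Hoxa3 had one in 5 libraries, and Hoxc4, with 4 reads in all, in 4 libraries. The Hoxc4 region (chr15:103033962-103034331) ended 64 bases before the start whose sequence is shown, and so lay inside the annotated span of Hoxc4. Hoxa7 and Hoxa9, with RNA in every library, were among the 12 with no promoter peak. The nearest region to the Hoxa9 start began 1055 bases past it, inside the gene, and had a peak in 5 libraries.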

How the data were processed

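RNA values are raw read counts per Ensembl gene, deposited as 1 table for each library. The tools named, per the submitters' processing notes, include STAR 2.0.4, featureCounts 1.4.5 and HTSeq 0.8.0, without their roles. The lines for unassigned reads, 80.3% to 83.5% of each table, were left out. ATAC values are 1 peak list per library, with MACS2 named in the notes. Each peak's fold enrichment (a ratio) and its −log10 p and q are the authors' own deposited values.

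The Hox members, lists and tests were chosen with earlier results of these data known. Genes named outside Hox were Kdm6b, Cd48 and, with none called, the 2 of highest mean CPM in each list, while the untested Cdx genes, Hottip, Hotair, Hoxb3os, Hoxb5os, Procr and Mecom were chosen after their values were seen. Counts were tested with edgeR 4.0.16 (filterByExpr, TMM, robust glmQLFit, glmQLFTest, two-sided, Benjamini-Hochberg over 15185 genes, threshold 0.05) on 3 against 3 libraries. The labels call the libraries biological replicates, and replicate pairs differed beyond counting noise (chi-square per degree of freedom 14.8 or more). The code was tested on simulated counts, where 9.40% of calls were unchanged genes. Alternatives used DESeq2 1.42.0, limma 3.58.1 (voom), other scalings and filters, and each library left out. Peaks were counted in cluster spans and compared with an exact permutation test (scipy 1.17.1). Positions and promoter sequences are RefSeq's on GRCm38.p6. The files use mm10, per the labels. Results for some genes are not reported here, including 1 that the naming rule would give.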

Additional observations from a re-analysis of the deposited data

How the results depend on the processing

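No alternative called a Hox gene: other scalings, no low-count filter, DESeq2, limma-voom, the replicate block and each library left out all gave 0. Leaving out chromosome 11 genes, chosen after seeing the data, also gave 0 but tests only the 6 Hoxa members. The smallest adjusted p of any tested member was 0.268, for Hoxa7 under library totals, where its unadjusted p was under 0.05, a scaling that moved the median log2 fold change of all genes by 0.147. The sign of Hoxa7, Hoxa9, Hoxa3, Hoxb5, Hoxb2 and Hoxb4 was the same in every alternative in which it was fitted. That of Hoxa5 turned positive under library totals (0.14), with no filter (0.014), without Control 1 (0.18), without Kdm6b-KO 1 (0.06) and without Kdm6b-KO 3 (0.19). Hoxa2 turned positive without Control 1 (0.35) and without Kdm6b-KO 1 (0.08), Hoxa10 turned to -0.012 without Kdm6b-KO 2, and Hoxb3 to 0.0045 without Kdm6b-KO 3. With a library left out the ranges were -0.34 to 0.19 for Hoxa5, -0.49 to 0.35 for Hoxa2, -0.012 to 0.22 for Hoxa10, -0.29 to 0.0045 for Hoxb3, 0.06 to 0.56 for Hoxa3, 0.24 to 0.39 for Hoxa7, 0.15 to 0.46 for Hoxa9, -0.58 to -0.014 for Hoxb2, -0.63 to -0.34 for Hoxb4 and 0.16 to 0.49 for Hoxb5. The cause was not tested. Over all genes, DESeq2 called 190 higher and 276 lower, and limma-voom 23 and 19, against 37 and 33 in edgeR. Leaving out 1 library gave 13 to 187 higher and 7 to 332 lower.

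Replicate numbers did not pair the libraries: same-numbered libraries had correlations of 0.032, 0.161 and -0.127 in their deviations from the group means, and not every library correlated best with its own number. With the replicate block 0 Hox genes were called, and the genes called lower were 53. The summed difference of Hoxa, 35.1 CPM, ranged from 19.1 to 59.5 CPM with a library left out and was 58.6 CPM under library totals. That of Hoxd, 0.593 CPM, ranged from 0.0056 (without Kdm6b-KO 1) to 1.19 CPM, and that of Hoxc, -0.466 CPM, from -0.883 to -0.0816 CPM. The Hoxb difference, -1.46 CPM, ranged from -4.99 to 3.00 CPM with a library left out and was 4.81 CPM under library totals. The difference in Hox genes with a peak, 9.33, ranged from 7.0 to 12.3 with a library left out. The Hoxb peak difference of 6.33 ranged from 4.83 to 8.83 with a library left out, was 6.0 for peaks with −log10 q of at least 5 and 9.0 with 50 kb added at each end. Peak numbers are limited by the unknown depth of the ATAC libraries.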

Other observations

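Several recurrent open regions lay at noncoding genes in parts of the clusters with little RNA. A region (chr2:74715803-74716326) lay at the start of Hoxd3os1, an antisense gene that overlaps Hoxd3. It had peaks in Control 2 and 3, with folds of 5.20 and 7.23, and in the libraries titled 6bKO 2 and 3, with folds of 9.45 and 15.4. Hoxd3os1 RNA had 0, 0 and 2 counts in Control and 2, 3 and 0 counts in Kdm6b-KO. A second region, inside Haglr between Hoxd3 and Hoxd1 (chr2:74749231-74749639), had peaks in Control 3 (9.28) and in the libraries titled 6bKO 2 and 3 (10.4 and 15.95), and Haglr had 0 to 3 counts a library. At the rear of Hoxa, a region inside Hoxa11os (chr6:52246384-52246880) had peaks in 5 libraries, with folds of 5.64 and 5.52 in Control 2 and 3 and 12.3, 6.90 and 9.80 in the libraries titled 6bKO. Hoxa11os had 0 to 3 counts a library.

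Some genes that act on the clusters did not overlap between the RNA groups and missed the threshold. They were chosen after their values were seen. Phc2, a subunit of Polycomb complex 1, had 18.4, 8.90 and 13.6 CPM in Control against 22.7, 32.4 and 32.7 CPM in Kdm6b-KO (edgeR adjusted p = 0.114). Cbx6, a reader subunit of the same complex, had 46.2, 31.0 and 43.2 CPM against 69.8, 66.6 and 67.8 CPM (edgeR adjusted p = 0.118). Ezh2, the H3K27 methyltransferase, had 134.7, 98.5 and 81.8 CPM against 63.0, 65.3 and 69.99 CPM (edgeR adjusted p = 0.168), and Mllt1, a paralog of Mllt3, had 11.2, 7.12 and 6.06 CPM against 14.3, 16.5 and 25.2 CPM (edgeR adjusted p = 0.118). In the whole lists, 7 of 17 activators (2 higher and 5 lower) and 7 of 22 Polycomb genes (4 higher and 3 lower) had no overlap between the groups, against 20.5% of all genes, and these 4 are examples.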
